A study of Rattus norvegicus with 10 samples.

Results

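The 49 tRNA-Met(CAT) fragments described here were all fragments whose tRNA name ends in MetCAT, whatever their first and last position, out of 2262 listed fragments. They came from 4 of the 69 listed tRNAs. tRNA3836 supplied 42 of them, tRNA3895 and tRNA2927 3 each, and tRNA3806 1. Small RNA of the ischemic right brain and of the uninjured left brain of 5 adult male Sprague-Dawley rats was sequenced, giving 5 ischemic and 5 control libraries. All animals had undergone middle cerebral artery occlusion of the right side for 2 h followed by reperfusion, tissue was taken at 24 h, and animals with a neurologic deficit were selected. The control is therefore the other side of the same injured animals, and no sham-operated rat was included. The source label named the other condition for 4 libraries, the ischemic brains of rats 45 and 52 and the control brains of rats 71 and 72, so groups follow the side in the title, and values are also given for the 6 libraries in which both labels match.

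Methionine has a pair of tRNA types with one anticodon. The initiator places the first amino acid of every protein, and the elongator adds methionine within the chain. Under stress, nucleases such as angiogenin can cut mature tRNAs in the anticodon loop, which leaves a 5′ and a 3′ piece. The sequences of tRNA3836 and tRNA3895 began like the initiator, and the 3′ pieces of tRNA2927 and tRNA3806 carried GTTC, the T-loop motif of elongator tRNAs that the initiator lacks.

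The following sequences are shown because nearly all tRNA-Met(CAT) reads were variants of one 5′ fragment of tRNA3836, and because position 9 and the start position carried the differences described below. Positions start with 1 at the first base of the tRNA, and letters are DNA letters as listed. The span from 1 to 31 was listed in 6 forms. Capitals mark position 9 in the first 4 lines.
tRNA3836, 1 to 31, commonest: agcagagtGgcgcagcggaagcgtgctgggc
tRNA3836, 1 to 31, G9T: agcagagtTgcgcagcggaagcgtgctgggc
tRNA3836, 1 to 31, G9C: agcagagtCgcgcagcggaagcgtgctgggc
tRNA3836, 1 to 31, 1 G fewer at positions 9 and 10: agcagagtGcgcagcggaagcgtgctgggc
The form with G9A was listed over the same span of 31 nts but beside a sequence of 41 nts, so the bases that its reads covered are uncertain. That longest sequence reaches through the anticodon, CAT at positions 33 to 35, which is in capitals.
tRNA3836, G9A, longest listed: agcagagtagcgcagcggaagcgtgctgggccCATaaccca
The sixth form differed from the commonest by G25A and held 14 reads in all, 13 ischemic and 1 control. The second initiator sequence and the most abundant fragment that did not begin at position 1 are shown next. Capitals mark A19G in tRNA3895, relative to tRNA3836, and position 9 in the shorter fragment.
tRNA3895, 1 to 31: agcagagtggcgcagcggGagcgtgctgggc
tRNA3836, 3 to 31: cagagtGgcgcagcggaagcgtgctgggc
The 3′ fragments of the other 2 tRNAs are shown with GTTC in capitals. The tRNA2927 sequence was listed with 35 nts for a span of 34, and over 34 nts the pair differed at 5 positions.
tRNA2927, 40 to 73: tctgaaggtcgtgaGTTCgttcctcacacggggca
tRNA3806, 40 to 73: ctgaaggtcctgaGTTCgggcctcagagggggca
Each of the 49 listed sequences stood beside 1 tRNA name only. The list places fragments within the tRNA, so no chromosome position is given. RefSeq's annotation of the GRCr8 assembly names 13 rat genes Trnam-cau, to which the 4 names were not matched.

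Library totals ranged from 5125962 to 42674116 reads, the highest being the control library of rat 72. tRNA-derived reads were 1.34 to 2.42% of the control libraries and 14.3 to 46.7% of the ischemic libraries. All 2262 fragments had reads in every ischemic library, so fragments without reads in an ischemic library do not appear in the list. Of the 49 tRNA-Met(CAT) fragments, 11 had reads in every control library and 9 in none. Of all 2262 fragments, 599 had reads in every control library and 355 in none.

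tRNA-Met(CAT) fragments were more abundant in every ischemic brain than in every control brain, mainly through 5′ fragments of tRNA3836. In reads per 1000000 reads of the library (RPM), their summed level in the ischemic brains was 578 in rat 45, 479 in rat 52, 187 in rat 61, 202 in rat 71 and 458 in rat 72. In the control brains it was 23.8, 23.0, 19.5, 19.2 and 28.4 in the same order. The groups did not overlap, and the ischemic libraries varied more among themselves (381 ± 176, SD, n = 5) than the controls (22.8 ± 3.74, SD, n = 5). Summed over the anticodon, the level was 16.7-fold higher (log2 difference 4.06, SE 0.42, adjusted p = 2.00e-18, edgeR's quasi-likelihood test with Benjamini-Hochberg adjustment). With the reads outside the tRNA list as library sizes, the log2 difference was 4.71. Of 30 anticodons tested, 27 rose, or 90.0%, with a median log2 difference of 4.28, and MetCAT ranked 16. The rise of tRNA-Met(CAT) was thus near the middle of the anticodons. The 6 libraries with matching labels gave a log2 difference of 3.67 (edgeR's adjusted p = 1.89e-12). Grouping by the source label gave -0.33 (edgeR's adjusted p = 0.985). In brain tissue, a change in the number of cells of a type and a change in RNA per cell cannot be told apart.

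Relative to the other tRNA fragments the amount of tRNA-Met(CAT) did not differ beyond the spread between animals. In the ischemic brains 0.147, 0.133, 0.131, 0.0760 and 0.0981% of the tRNA-derived reads were tRNA-Met(CAT) in rats 45, 52, 61, 71 and 72. In the control brains the shares were 0.0986, 0.0992, 0.0812, 0.0986 and 0.213%. The groups overlapped, and the highest share of all 10 was that of the control brain of rat 72. The means were 0.117 ± 0.0290% and 0.118 ± 0.0534% (SD, n = 5 each). The mean log2 share was 0.04 higher for the ischemic side, which was the higher side in 3 of 5 rats (two-sided exact permutation p = 0.905, or 0.992 after adjustment over 10 tests of shares and spans). The mean share and the mean log2 share thus differed in sign.

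Among the 4 tRNAs, tRNA3836 held 97.4 to 98.7% of the tRNA-Met(CAT) reads in the ischemic libraries and 99.0% or more in the control libraries. Its level was 565, 470, 183, 197 and 452 RPM in the ischemic brains of rats 45, 52, 61, 71 and 72 and 23.8, 23.0, 19.5, 19.0 and 28.4 RPM in the control brains. The rise was 16.4-fold (log2 difference 4.03, SE 0.43, edgeR's adjusted p = 5.67e-18), which placed it 24th of the 43 tRNAs tested, of which 88.4% rose with a median log2 difference of 4.39. The 3 other tRNAs were rare in every library.

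tRNA3895, the second initiator sequence, had 32, 25, 18, 13 and 36 reads in the ischemic brains of rats 45, 52, 61, 71 and 72. It had 1 read in the control brain of rat 72 and none in the other 4 control brains. Over the pooled libraries its level was 216-fold higher, with a 95% counting interval of 38.0 to 8588 that covers counting error only. tRNA2927, an elongator by its GTTC motif, had 33, 22, 32, 10 and 13 ischemic reads and none in any control library. Against a floor of 3 reads over the pooled controls, 0.0454 RPM, the level of its listed fragments was at least 63.8-fold higher. Without the control library of rat 72, which holds most of the pooled control reads, the bound was at least 22.6-fold for tRNA2927 and at least 25.5-fold for tRNA3895. Both tRNAs passed the filter on reads through the ischemic group alone. The fitted log2 differences of 7.12 (SE 0.87) for tRNA3895 and 8.04 (SE 0.99) for tRNA2927 rest on controls at or near 0 and are no bounds. tRNA3806, the other elongator, had 7, 4, 5, 4 and 3 ischemic reads, 1 read in each of the control brains of rats 71 and 72, and none in the other 3. Its pooled level was 20.01-fold higher (95% counting interval 4.94 to 175), and it had too few reads for the fit. Only fragments with reads in every ischemic library were listed, and the intervals and bounds do not account for this choice. The folds, intervals and bounds of tRNA3895, tRNA2927 and tRNA3806 are therefore descriptions of the listed fragments and no support for a rise.

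The balance between the tRNAs was compared in shares of the tRNA-Met(CAT) reads. The share of tRNA3836 was 1.83 percentage points lower in the ischemic libraries (97.9 ± 0.518% against 99.8 ± 0.439%, SD, n = 5 each, two-sided exact permutation p = 0.00794, adjusted 0.0132, lower in 5 of 5 rats). This p is the smallest that 5 against 5 libraries can give. tRNA3895 held 0.740 to 1.25% of the ischemic reads and 0 to 0.0824% of the control reads, and tRNA2927 0.322 to 1.32% against 0% in all controls. Each of these 2 differences gave the same permutation p, and the ischemic share was the higher one in 5 of 5 rats. The listing and the depth limit this comparison. Only fragments with reads in every ischemic library were listed, so the ischemic shares of tRNA3895, tRNA2927 and tRNA3806 had to be above 0. The p-values and counts of rats are therefore descriptions and no support for a shift between the tRNAs. With 99 to 162 tRNA-Met(CAT) reads in 4 control libraries, a count of 0 allows a share of 1.85 to 3.03%, which is above the ischemic shares of both tRNAs. The control library of rat 72, with 1213 reads, allows up to 0.247%, and the ischemic shares of tRNA2927 lay above that value. Of the position 1 reads of both initiator sequences in that library, 1 of 817 was tRNA3895, or 0.122% (95% exact binomial interval 0.00310 to 0.680%). In the ischemic brain of the same rat it was 36 of 3969, or 0.907% (0.636 to 1.25%). These intervals compare 2 libraries, cover counting error only, and were not tested against each other. The share of tRNA3806 did not differ beyond its spread (0.208 ± 0.116% against 0.218 ± 0.444%, SD, n = 5 each, permutation p = 0.992), and without the control library of rat 71 the difference was 0.187 percentage points (exact permutation p = 0.0238).

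All 6 pairs of the 4 tRNAs were compared by the log2 ratio of their reads with 0.5 read added. The ratio differed between the groups in 4 pairs at an adjusted p under 0.05 (two-sided exact permutation test, adjusted over the 6 pairs). On the log2 scale the ratio of tRNA3836 to tRNA3895 averaged 6.65 ± 0.29 among ischemic and 8.29 ± 0.82 among control libraries (SD, n = 5 each, adjusted permutation p = 0.0159). That of tRNA3836 to tRNA2927 was 6.88 ± 0.79 against 8.61 ± 1.499 (adjusted permutation p = 0.0476). The ratios of tRNA3895 and of tRNA2927 to tRNA3806 were 2.27 ± 0.72 and 2.04 ± 0.51 in the ischemic libraries (SD, n = 5 each). Their control ratios come from counts of 0 and 1 alone and are fixed by the added 0.5 read, so no direction is read from these 2 pairs, although both are among the 4 (adjusted permutation p = 0.0159 each). The ratio of tRNA3895 to tRNA2927 was 0.22 ± 0.81 against 0.32 ± 0.71 and that of tRNA3836 to tRNA3806 was 8.92 ± 0.86 against 7.98 ± 1.30 (adjusted permutation p = 0.881 and 0.276). The control ratios to tRNA3836 are likewise set mostly by the added 0.5 read and the depth, and with 1 read added only 2 pairs passed. The rarer tRNAs were also listed only because they had reads in every ischemic library.

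Among the listed fragments, the part of the tRNA covered differed between the tRNAs without exception. Every listed fragment of both initiator sequences ended at position 41 or earlier, and every listed fragment of tRNA2927 and tRNA3806 was a 3′ piece beginning at position 40 or 41 and ending at 72 or 73. No 3′ piece of the initiator and no 5′ piece of an elongator was listed. The libraries were selected for a narrow range of short inserts, and only fragments with reads in every ischemic library were listed. A piece too long for that range, or without reads in 1 ischemic library, could not appear. Whether the unlisted pieces were present in the brain was not tested. Of the 49 fragments, 26 began at position 1, 4 ended within 3 nts of the last position and 19 did neither. The 26 fragments from position 1 held 12587 ischemic and 1196 control reads, the 4 from the 3′ end 133 and 2, and the 19 others 616 and 520.

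The listed ends lay at the start of the anticodon loop in both groups. Ends are taken from the listed span, and 9 of the 49 fragments were listed with a sequence longer than their span. In tRNA3836 the loop covers positions 31 to 37. Of the tRNA-Met(CAT) reads from position 1, 94.3 to 96.9% ended within the loop in the ischemic libraries and 92.4 to 98.7% in the control libraries, a difference of 0.02 percentage points (two-sided exact permutation p = 0.976). Position 31 alone was the end of 86.2, 82.8, 81.0, 78.0 and 86.2% of the tRNA3836 reads from position 1 in the ischemic brains of rats 45, 52, 61, 71 and 72. In the control brains it was the end of 87.2, 83.2, 79.7, 84.4 and 86.4%. The groups overlapped throughout, and the means of 82.8 ± 3.52% and 84.2 ± 2.94% (SD, n = 5 each) did not differ beyond their spread (exact permutation p = 0.508, adjusted 0.635 over 15 tests chosen after seeing the data). Ends at positions 30, 32 and 33 took 4.37, 6.07 and 6.39% of the ischemic reads on average and 3.999, 3.98 and 6.73% of the control reads, with adjusted permutation p-values of 0.283 or higher.

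The start of the fragment did differ. In the control brains a larger part of the tRNA3836 reads began at positions 2 to 5 instead of 1. Among reads beginning at 1 to 5, these trimmed reads made up 20.4, 26.1, 30.2, 20.6 and 32% in the control brains of rats 45, 52, 61, 71 and 72. In the ischemic brains they made up 6.69, 5.24, 6.57, 5.85 and 1.33%. The groups did not overlap, and the lowest value was the ischemic brain of the rat with the highest control value. The means were 25.9 ± 5.32% and 5.14 ± 2.21% (SD, n = 5 each), and the difference of -20.7 percentage points had a two-sided exact permutation p of 0.00794 (adjusted 0.0298 over the 15 tests, lower in 5 of 5 rats). In the 6 libraries with matching labels the difference was -21.0 points, where the exact permutation test cannot go below 0.1. Grouping by the source label gave -4.46 points (exact permutation p = 0.611).

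Most of the trimmed control reads began at position 3. Of the pooled control reads that began at 1 to 5, 70.3% began at 1, 0.176% at 2, 22.3% at 3, 4.76% at 4 and 2.53% at 5. In the pooled ischemic reads the shares were 95.3, 0.528, 1.99, 1.55 and 0.604%. Position 3 stood out in each control library, where it held 12.4 to 25.4% of these reads, against 0.778 to 3.07% in the ischemic libraries. The control brain of rat 72 alone held 305 of the 379 control reads that began at position 3, and without this library the difference in the trimmed share was -19.2 percentage points (exact permutation p = 0.00794).

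The level of the trimmed reads moved less than that of the reads from position 1. In RPM the trimmed reads were at 37.7, 24.6, 12.0, 11.5 and 6.01 in the ischemic brains of rats 45, 52, 61, 71 and 72, and at 4.83, 5.96, 5.90, 3.88 and 8.998 in the control brains. They were higher in the ischemic side of 4 of 5 rats and lower in rat 72, and the groups overlapped. The log2 difference was 1.41 (two-sided exact permutation p = 0.0159, adjusted 0.0476). It was 0.76 in the 6 libraries with matching labels, and the permutation paired by rat gave an exact p of 0.125, above the 0.0625 that it can reach. The reads from position 1 were at 171 to 527 RPM in the ischemic and 13.6 to 19.1 RPM in the control libraries, a log2 difference of 4.27 (exact permutation p = 0.00794, adjusted 0.0298, higher in 5 of 5 rats).

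Summed over the remaining tRNAs the share did not fall, but some single tRNAs showed a like drop. Over all other tRNAs together, a sum made up mostly of the most abundant tRNAs, trimmed reads made up 2.22 ± 1.25% of the ischemic and 1.44 ± 0.617% of the control reads that began at 1 to 5 (SD, n = 5 each, exact permutation p = 0.270, adjusted 0.450). The gap between tRNA3836 and the other tRNAs was 24.4 ± 4.83 points in the control and 2.91 ± 1.63 points in the ischemic libraries, and this difference of -21.5 points was itself tested (two-sided exact permutation p = 0.00794, adjusted 0.0298). Of the 17 other tRNAs with at least 20 such reads in every library, the change in the trimmed share had a median of 0.98 points. It was below 0 in 4 of them and lower than in tRNA3836 in 1, tRNA1683-LysTTT, which went from 38.5 to 12.5%. tRNA3946-HisGTG went from 27.8 to 11.8% with overlapping groups.

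At the level of single fragments, 12 of the 49 had at least 10 reads in at least 5 libraries, and 2 of these 12 reached 10 reads in no control library. Only 5 of the 12 reached 10 reads in 2 or more control libraries, as did 324 of all 876 fragments that passed. With library totals as sizes, 11 rose, none fell and 1 did not pass the test (edgeR's quasi-likelihood test, adjusted p under 0.05). Of all 876 fragments tested, 94.5% rose and 3.31% fell, with a median log2 difference of 4.23 against 4.35 for the 12. All 12 came from tRNA3836. The most abundant was the commonest 5′ fragment, 1 to 31. In RPM its level was 248, 205, 76.3, 78.8 and 213 in the ischemic brains of rats 45, 52, 61, 71 and 72 and 7.94, 7.81, 5.35, 6.41 and 9.28 in the control brains. Every ischemic library lay far above every control library. The fitted rise was 22.2-fold (log2 difference 4.47, SE 0.51, edgeR's adjusted p = 8.39e-08).

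The 3 fragments that the rule named for their rise were 5′ fragments that ended at position 30 or 32. Those from 1 to 32 are the 2 that passed the filter on reads through the ischemic group alone, so they had to differ, and only their reads are given. The form with 1 G fewer at positions 9 and 10 had 19, 32, 24, 10 and 22 ischemic reads and 1, 0, 0, 0 and 2 control reads in rats 45, 52, 61, 71 and 72. The commonest form had 102, 87, 62, 46 and 78 ischemic reads and 0, 5, 1, 2 and 9 control reads. The 1 to 30 fragment had 45, 83, 56, 20 and 123 ischemic reads and 0, 5, 1, 1 and 15 control reads (log2 difference 4.81, SE 0.70, edgeR's adjusted p = 1.01e-06). Here too 4 of the 5 control libraries held few reads. The 1 to 30 fragment reached 10 control reads only in the deep library of rat 72, so its fitted rise is a description.

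The fragment from 3 to 31 was the exception. It had 5.88, 2.76, 1.70, 1.95 and 0.567 RPM in the ischemic brains of rats 45, 52, 61, 71 and 72 and 1.73, 1.85, 1.48, 0.971 and 3.73 RPM in the control brains. The groups overlapped fully, and the ischemic brain of rat 72 was the lowest and its control brain the second highest of all 10. Its log2 difference of 0.30 (SE 0.56) did not pass the test (edgeR's adjusted p = 0.602), while the fragment from 3 to 33 rose by 3.26 (SE 0.66, edgeR's adjusted p = 6.47e-05). The 3 to 33 fragment had 0, 2, 0, 0 and 19 control reads in rats 45, 52, 61, 71 and 72. It too reached 10 control reads only in the deep library of rat 72, so its fitted rise is a description. Of the 195 control reads of the 3 to 31 fragment, 159 came from that library.

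A second fit compared each fragment with the other tRNA fragments, with the tRNA-derived reads as library sizes. In it no tRNA-Met(CAT) fragment rose, and 1 fell, the fragment from 3 to 31 (log2 difference -3.67, SE 0.60, edgeR's adjusted p = 5.84e-05). DESeq2 gave the same counts of 0 and 1. At an unadjusted p under 0.05, 2 fragments rose in edgeR's fit, both from 1 to 32. These are the 2 that passed the filter on reads through the ischemic group alone, so their relative rise is a description. Of all 876 fragments, 18.9% rose and 11.0% fell in this fit, with a median log2 difference of 0.34. The commonest 5′ fragment stood at 0.48 (SE 0.39, edgeR's adjusted p = 0.349).

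Position 9 was read with several letters, in nearly the same proportions in the pooled reads of both groups. Position 9 is a site at which many eukaryotic tRNAs carry a methylated base. Modification was not measured, and whether the letters stood in the RNA, in a gene copy or arose in the cDNA was not tested. Of the pooled ischemic reads from 1 to 31, 55.2% had G, 15.5% had 1 G fewer at positions 9 and 10, 14.0% had T, 8.54% had C and 6.66% had A. In the pooled control reads the shares were 54.7, 15.9, 14.4, 8.80 and 6.16%. Of these 1023 control reads, 705 came from the control library of rat 72, so the pooled control shares mostly describe that library. The T, C and A forms and the form with 1 G fewer together made up 45.5, 44.4, 44.7, 45.3 and 44.3% of these reads in the ischemic brains of rats 45, 52, 61, 71 and 72. In the control brains they made up 51.6, 44.4, 50.8, 47.7 and 43.8%, on only 59 to 99 reads in 4 of the 5 libraries. The means of 44.9 ± 0.520% and 47.7 ± 3.55% (SD, n = 5 each) did not differ beyond their spread (two-sided exact permutation p = 0.151, adjusted 0.283), although without the control library of rat 72 the exact permutation p was 0.0317. The T form was 13.7 ± 0.966% against 16.7 ± 2.43% (exact permutation p = 0.0397, adjusted 0.0992). The other 3 forms had adjusted permutation p-values of 0.606 or higher.

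The forms recurred in the neighbouring spans. G, T, C, A and the form with 1 G fewer were all listed for the spans from 1 to 30, 1 to 32 and 1 to 33. There the forms other than G made up 42.8, 43.9 and 42.4% of 572, 668 and 724 pooled ischemic reads. In the pooled control reads they made up 58.5, 50.0 and 43.2%, on only 53, 34 and 74 reads, and the difference was not tested. The trimmed span from 3 to 31 was also listed in all 5 forms, with 52.3% of 176 ischemic and 44.4% of 351 control reads in the forms other than G. Other trimmed spans were listed in 1 to 3 forms and had lower shares, such as 28.3% ischemic and 17.5% control for 4 to 31. tRNA3895 was listed from 1 to 31 also with C at position 9, with 14 reads beside 97 of its commonest form in the ischemic libraries. In 14 other tRNAs the main 5′ fragment had at least 20 reads in every library. There 0 to 11.5% of the ischemic reads differed from the commonest letter at position 9, with a median of 0.115%. None reached the 44.9% of tRNA3836, but position 9 was chosen after its values in tRNA3836 were seen. With differences at any position counted, 44.99% of these ischemic reads of tRNA3836 lay outside its commonest sequence. By that measure 2 of the 14 were higher, tRNA22-GluCTC with 50.74% and tRNA7274-GlyCCC with 48.04%. The other 12 were lower, and the median of the 14 was 8.30%.

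The 3′ fragments of the elongator pair were few. The most abundant, tRNA2927 from 40 to 73, had 17, 11, 12, 6 and 7 reads in the ischemic brains of rats 45, 52, 61, 71 and 72 and none in the control brains. The same span of tRNA3806 accounted for all reads of that tRNA. As a share of the tRNA-Met(CAT) reads, 3′ fragments were 1.31, 0.935, 1.52, 1.35 and 0.396% in the ischemic and 0, 0, 0, 1.01 and 0.0824% in the control libraries (two-sided exact permutation p = 0.0238, adjusted 0.0340). Since only fragments with reads in every ischemic library were listed, the ischemic shares had to be above 0, and this p is a description. The groups overlapped in 1 control library, that of rat 71, which held 1 such read. With any one of the ischemic libraries of rats 45, 61 and 71 left out, the difference did not pass the test (exact permutation p = 0.0635). With only fragments that end at the last position counted as 3′, it was 0.555 instead of 0.885 percentage points and did not pass either (exact permutation p = 0.0714).

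The read-weighted span ranged over 31.02 to 31.15 nts for ischemic and 30.33 to 30.66 nts for control libraries, 0.602 nts longer on the ischemic side (two-sided exact permutation p = 0.00794, adjusted 0.0132, longer in 5 of 5 rats). The share of 5′ reads moved with it, 93.8 ± 2.59% against 73.5 ± 4.99% (SD, n = 5 each, the same permutation p), and so did the trimmed share given above. With reads from positions 1 to 3 counted as 5′, the difference fell from 20.3 to 6.25 percentage points.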

How the data were processed

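Small RNAs of 10 brain libraries were sequenced, 1 from each side of 5 rats. Before deposit the authors discarded reads that were short or of low quality, compared the others with miRBase and, with 2 mismatches allowed, further small RNA databases, and placed tRNA fragments by the Genomic tRNA Database; the submitters' processing notes name the build rn4, and the aligner is not given in the sources used here. The deposited counts are raw reads per tRNA, span and listed sequence. The RPM values deposited by the authors, headed TPM, give those reads relative to 1000000 reads in the library, without scaling for length, and their quotient with the reads gave the library totals.

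Groups followed the side in the title. Reads summed by anticodon, by tRNA and by fragment were tested with edgeR 4.0.16 (R 4.3.3), quasi-likelihood test, robust dispersions and Benjamini-Hochberg adjustment over all features that reached 10 reads in 5 or more libraries. Library totals were the sizes; a relative fit used tRNA-derived read sums with TMM factors. DESeq2 1.42.0 was an alternative. Shares and ratios, 1 value per library, were compared by two-sided exact permutation tests (Python 3.11.15). Their smallest p is 0.00794 for 5 against 5 libraries. On simulated data with 200 of 876 fragments changed by 2 on the log2 scale, the fits recovered 98% of the changes. The simulation gave every fragment the same dispersion and as many rises as falls, whereas most fragments rose in the data. The 98% therefore holds for that setting only.

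A fragment was called 5′ when it began at position 1 and 3′ when it ended within 3 nts of the last position. Named fragments were the most abundant of each tRNA and of each part, up to 3 with the largest rise or fall, called, in the same direction in 5 of 5 rats and with a mean of at least 10 reads, and any called lower. The fragment from 3 to 33, the forms at position 9, the start and end positions and the fold bounds without the control library of rat 72 were chosen after their values were seen. The members and all lists were chosen with earlier results of these data known.

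Rat numbers pair the libraries, since both sides come from 1 animal. The deviations of paired libraries from their group means correlated at 0.0615, 0.142, -0.148, 0.253 and 0.0113 in rats 45, 52, 61, 71 and 72, over 876 fragments. The floor behind a count of 0 was 3 reads, 0.0703 to 0.585 RPM by library. Intervals and floors cover counting error only, since reads carried no molecular identifiers. Alternatives were other group labels, the pairing, omission of each library, other sizes, filters, lengths and definitions of the ends.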

Additional observations from a re-analysis of the deposited data

Results flagged for a closer look

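In 51 groups of 5 values, 1 per library, 5 values stood apart from the others of their group by Dixon's test. Chance alone flags about 1 in 20 independent groups, but these groups are overlapping measures of the same libraries. The control brain of rat 72, the deepest library, held 0.213% tRNA-Met(CAT) among its tRNA-derived reads, against 0.0812 to 0.0992% in the other 4 control libraries. The ischemic brain of rat 72 had the lowest share of internal reads, 1.34% of its tRNA-Met(CAT) reads against 5.22 to 6.56% in the other ischemic libraries. Its trimmed share of tRNA3836 reads, 1.33% against 5.24 to 6.69%, is the same pattern in another measure. The ischemic brain of rat 71 had the longest read-weighted span, 31.15 nts against 31.02 to 31.05 nts. In the control brain of rat 71, tRNA3836 held 99.0% of the tRNA-Met(CAT) reads against 99.8% or more in the other controls, which is 1 read of another tRNA among 99. The control libraries of rats 71 and 72 carry a source label that names the other condition.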

How the results depend on the processing

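Grouping by the source label, which moves 4 libraries to the other condition, ended every call: the log2 difference of the anticodon became -0.33, that of tRNA3836 -0.32, tRNA2927 -0.76 and tRNA3895 -0.37, and those of the named fragments 1 to 31, 1 to 32, 1 to 30 and 1 to 32 with 1 G fewer -0.30, -0.60, -0.062 and -0.55. Under those labels 0 fragments were called in either fit, 0 pairs of tRNAs passed, the 5′ share differed by 4.01, the tRNA3836 share by -0.63 and the trimmed share by -4.46 percentage points, the trimmed level by -0.49 on the log2 scale, and the fragment from 3 to 31 stood at 0.26 in the relative fit. TMM factors on the tRNA-derived reads set the general rise of tRNA fragments to about 0. With them the anticodon stood at -0.17 and tRNA3836 at 0.60 on the log2 scale. The factors were computed separately for anticodons and for tRNAs, so these values are not on a common scale. For fragments this setting is the same as the relative fit given above, with the fragment from 3 to 31 at -3.67, 0 fragments higher and 1 lower. Without a filter, 40 of 49 fragments rose by library totals, and 12 rose and 8 fell in the relative fit. The share of all fragments called is not given for these alternatives, so these counts and those below describe the settings only. In the main fits 94.5% of all fragments rose by library totals, and 18.9% rose and 11.0% fell in the relative fit. With a mean of at least 10 reads 2 fell in the relative fit. With 1 read added, 2 pairs of tRNAs passed. Leaving out 1 library at a time gave 11 to 19 fragments higher, 17 without the ischemic library of rat 71 and 18 or 19 without any 1 control library, where up to 20 were tested since the filter then asked for 10 reads in 4 libraries. In the relative fit it gave 0 to 2 higher and 1 to 2 lower, with 2 lower without the ischemic library of rat 71 or 72 or the control library of rat 45, 52, 61 or 71, and 1 or 2 higher without any 1 library other than the ischemic library of rat 52. The share of forms other than G at position 9 differed by -3.78 to -1.84 percentage points, and the tRNA3806 share by -0.065 (without the control library of rat 45) to 0.187 (without that of rat 71, exact permutation p = 0.0238). With the rat number as a replicate block the anticodon rose by 3.93 (log2), 11 fragments were called higher, 1 fell in the relative fit, and no call of edgeR changed. The paired permutation over 5 rats cannot go below 0.0625. Of 640 values under alternatives, 568 kept direction and call. Depth limits the 3 rarer tRNAs, with 0 or 1 read in each control library.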
